A study of Mus musculus with 4 samples.

Results

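The transition proteins and protamines were examined: Tnp1, Tnp2, Prm1, Prm2 and Prm3. They were taken by gene symbol, and each of the 5 symbols matched 1 of the 25265 genes in the deposited count table. All 5 also passed the filter on low counts, and so were among the 21132 genes tested.

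In elongating spermatids the histones that package DNA are largely removed. Transition proteins occupy the chromatin for a time, and protamines then replace them and condense the nucleus of the sperm. The messenger RNAs are made earlier, in round spermatids, are stored in ribonucleoprotein particles under a long poly(A) tail, and are translated only when the spermatid elongates and the tail has been shortened. YTHDF2 is a reader of N6-methyladenosine (m6A) in RNA that brings in a deadenylase, and the series title describes a mutation of its gene restricted to germ cells.

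The tissue was testis of C57BL/6 mice, taken at postnatal day 56, and its total RNA was sequenced after depletion of ribosomal RNA. There were 2 control libraries and 2 libraries labelled Ythdf2-vKO. The labels give no allele and no Cre driver, define neither vKO nor the genotype of the controls further, and do not say whether each library came from its own animal, so p-values measure the spread between these libraries, which may be technical. Library totals ran from 24862518 to 29561182 counts. The targeted gene Ythdf2 had 1193 and 1604 counts in control against 1774 and 1807 under the Ythdf2-vKO label (log2 fold change 0.35, SE 0.13, adjusted p 0.238 in edgeR's test), and was thus not lower where the label says it was mutated. Groups are therefore named by their labels throughout. Counts over a whole gene do not show whether a deleted exon was read.

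The coding sequences show what sets the members apart. Prm1, the shorter of the arginine-rich protamines, has 28 arginine codons among 51 (54.9%) and 9 cysteine codons, whose products form the disulphide bridges of the sperm nucleus. Prm2, which is made as a longer precursor and trimmed in the nucleus, has 38 arginine codons among 107 (35.5%) and 16 histidine codons. Tnp1, the more abundant transition protein in textbook accounts, has 11 arginine and 10 lysine codons among 55 and no cysteine codon. Tnp2, which binds zinc, has 16 arginine codons among 117 (13.7%), 22 serine codons and 12 histidine codons. Prm3 carries the protamine name and lies in the same gene cluster, yet it has only 2 arginine codons among 101 and 27 glutamate codons (26.7%), and its product is acidic.

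The contrast can be read in the coding sequences of Prm1 and Tnp1 and in the stretch of Prm3 from its first to its last glutamate codon, taken from the GENCODE M21 transcripts of build GRCm38. Capitals mark arginine codons in Prm1 and Tnp1 and glutamate codons in Prm3.
Prm1: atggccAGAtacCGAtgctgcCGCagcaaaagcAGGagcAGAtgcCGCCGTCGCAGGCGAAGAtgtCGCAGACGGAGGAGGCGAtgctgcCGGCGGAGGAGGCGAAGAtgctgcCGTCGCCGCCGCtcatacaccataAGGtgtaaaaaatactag
Tnp1: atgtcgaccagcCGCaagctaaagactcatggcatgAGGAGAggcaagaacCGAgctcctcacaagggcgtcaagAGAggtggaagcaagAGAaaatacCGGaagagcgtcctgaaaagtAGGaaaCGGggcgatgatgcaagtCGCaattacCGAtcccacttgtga
Prm3, codons 25 to 95: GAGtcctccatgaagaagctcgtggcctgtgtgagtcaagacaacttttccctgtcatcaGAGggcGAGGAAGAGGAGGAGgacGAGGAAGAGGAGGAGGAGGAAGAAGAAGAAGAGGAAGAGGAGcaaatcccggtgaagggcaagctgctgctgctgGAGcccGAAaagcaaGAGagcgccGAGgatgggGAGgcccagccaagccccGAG
Capitals fill most of Prm1, where most of them form unbroken runs and the rest stand singly. They stand singly or in a pair in Tnp1, and in Prm3 are densest in an acidic block in the middle of the stretch.

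**Figure D1:**
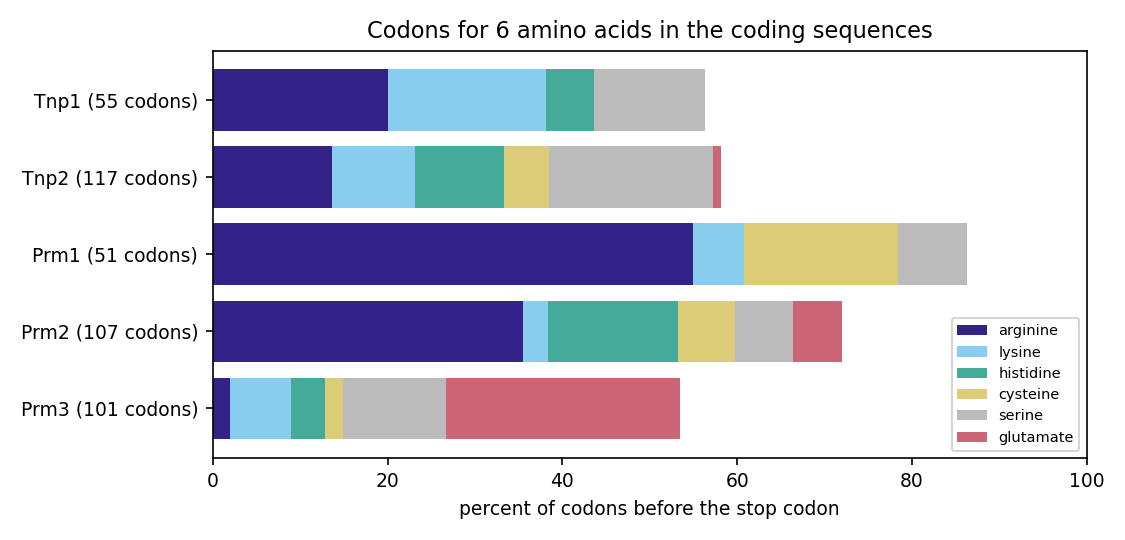
Percent of codons (horizontal axis) for arginine, lysine, histidine, cysteine, serine and glutamate in the coding sequence of each gene, stop codon left out. Arginine makes up 54.9% of Prm1 and 1.98% of Prm3, whose largest share is glutamate at 26.7%.

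Tnp1 (ENSMUSG00000026182) lies by itself on chromosome 1, minus strand, at 73015074 to 73015909 (GRCm38). The other 4 members lie together on the minus strand of chromosome 16, where their principal transcripts span 8951 nt from 10787936 to 10796886. In that order along the chromosome they are Tnp2 (ENSMUSG00000043050), Prm3 (ENSMUSG00000050058), Prm2 (ENSMUSG00000038015) and Prm1 (ENSMUSG00000022501). Tnp1, Tnp2, Prm1 and Prm2 have 2 exons in their principal transcript, and Prm3 has 1. The transcripts are short, with principal forms of 410 to 621 nt. A long noncoding gene, 1700027A15Rik, runs across Tnp1 on the opposite strand and its exons cover 40 nt of those of Tnp1. Its counts were 3680 and 4038 in control against 2656 and 2990 in the libraries labelled Ythdf2-vKO. The libraries were directional, but the strand setting of the counting is not given in the sources used here, so reads from the shared bases could have been given to either gene. The span of Prm1 also overlaps Gm46563 and Gm10343, which share no exon base with it. No other M21 gene matched a member over 100 nt or more at 90% identity or more. Below that cut, Prm3 matched 192 other genes, over at most 100 nt. Tnp1 matched 1, over 41 nt, and the other members matched none.

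The promoters were compared because all 5 genes are used in the same cells. For each gene, 110 bases are shown 5′ to 3′ on the minus strand, read from the RefSeq promoter table of build GRCm38.p6. They end just before the RefSeq start or that of the principal M21 transcript, whichever lies further upstream. The M21 spans of Prm1 and Prm2 reach further upstream still. The bases shown for these genes thus lie inside their own M21 spans, though in no annotated exon. Capitals mark matches to TGANNTCA, a relaxed form of the cyclic AMP response element that CREM binds in spermatids, and to the TATA-like words TATAAA and TATATA.
Tnp1, chr1:73015910-73016019: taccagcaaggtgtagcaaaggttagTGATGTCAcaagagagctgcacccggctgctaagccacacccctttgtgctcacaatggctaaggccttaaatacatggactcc
Tnp2, chr16:10788661-10788770: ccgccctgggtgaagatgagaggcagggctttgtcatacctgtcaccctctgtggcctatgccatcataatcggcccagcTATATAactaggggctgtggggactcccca
Prm3, chr16:10790915-10791024: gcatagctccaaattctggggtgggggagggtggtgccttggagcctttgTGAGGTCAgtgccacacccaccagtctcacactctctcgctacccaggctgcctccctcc
Prm2, chr16:10792106-10792215: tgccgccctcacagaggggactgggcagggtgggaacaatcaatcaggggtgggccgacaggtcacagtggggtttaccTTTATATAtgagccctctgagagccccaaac
Prm1, chr16:10796887-10796996: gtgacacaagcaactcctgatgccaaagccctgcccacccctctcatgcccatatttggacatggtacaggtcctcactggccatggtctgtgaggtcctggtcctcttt
Each motif was searched on both strands over the 250 bases before the RefSeq start, and TGANNTCA also takes in the full element TGACGTCA. TGANNTCA was found in Tnp1 (TGATGTCA, 94 to 87 bases before the start), in Prm3 (TGAGGTCA, 60 to 53 bases before) and in Prm1 (TGACTTCA, 64 to 57 bases before, overlapping the longer M21 first exon and so mostly outside the bases shown). It occurred in 11.9% of the 32851 promoters in the table. The full element TGACGTCA was in none of the 5 and in 1.55% of all promoters. TATATA was found in Tnp2 and Prm2, against 5.25% of all promoters, and in Prm2 it overlaps a TATAAA on the other strand, a word in 12.4% of all promoters. CCAAT, the core read by Y-box proteins, was found in Prm3 alone, upstream of the bases shown, and in 33.8% of all promoters. A match says only that the letters are there.

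The word GGAC, the core of the preferred m6A sequence, was counted in the principal transcripts, on the transcribed strand only. It occurred 2 times in Tnp1, 3 times in Tnp2, 3 times in Prm2, 2 times in Prm3 and 0 times in Prm1. Among tested genes whose longest transcript is under 700 nt, 84.4% of 1959 hold at least 1. No methylation was measured here.

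Together the members took 0.485% of the counts of control replicate 1 (95% Wilson interval 0.483% to 0.488%) and 0.433% of control replicate 2 (0.431% to 0.436%). In the libraries labelled Ythdf2-vKO the shares were 0.389% in replicate 1 (0.386% to 0.391%) and 0.399% in replicate 2 (0.397% to 0.401%). These intervals cover counting error within a library only, not the spread between libraries, and the reads carry no molecular identifiers. The intervals of the 4 libraries do not overlap, and both libraries labelled Ythdf2-vKO lie below both control libraries.

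Levels are given as CPM, counts divided by library size, with libraries scaled by the trimmed mean of M values (TMM). Per kilobase of the longest annotated transcript, Prm2 averaged 2918 CPM over the 4 libraries and ranked 1st of all genes tested. Tnp2 averaged 2191 CPM per kilobase and ranked 2nd, Prm1 1179.6 and 7th, and Tnp1 1056 and 9th. Prm3 averaged 215 CPM per kilobase and ranked 289th. By CPM, with no account of length, the ranks were 9th for Prm2, 30th for Tnp2, 200th for Prm1, 302nd for Tnp1 and 2897th for Prm3. The order Prm2, Tnp2, Prm1, Tnp1, Prm3 was that of the CPM per kilobase in each library. Prm1 and Tnp1 were not separated beyond their spread in control, at 1415 and 1194 CPM per kilobase for Prm1 against 1327 and 1068 for Tnp1. They were separated in the other group, and each other pair of neighbours in this order was separated within both groups. Levels per kilobase were not corrected for fragment size.

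Ratios within a library do not depend on the scaling. The ratio of Prm1 to Prm2 counts, a pair whose proportion is regulated in sperm, was 0.282 and 0.284 in control against 0.282 and 0.277 in the libraries labelled Ythdf2-vKO. The ratio of protamine to transition protein counts (Prm1 plus Prm2 over Tnp1 plus Tnp2) was 1.48 and 1.54 in control against 1.45 and 1.56, with overlapping groups. Within the transition proteins, the ratio of Tnp1 to Tnp2 counts was 0.397 and 0.396 in control against 0.358 and 0.364, without overlap. The ratio of Prm3 to Prm2 counts was 0.0454 and 0.0486 in control against 0.0404 and 0.0442, again without overlap, and that of Prm1 to Tnp1 counts was 1.14 and 1.20 against 1.21 and 1.27. The last 3 ratios were chosen after the data had been seen. With 2 libraries against 2, the exact two-sided permutation test cannot give a p below 0.333. That was the p of 4 of the 5 ratios (0.417 after Benjamini-Hochberg adjustment), and the p was 1 for protamines to transition proteins.

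To ask how these messages differed with the genotype label, all genes were tested together with edgeR's quasi-likelihood test, and p-values were adjusted by Benjamini-Hochberg over all of them. Each of the 5 members was lower in both libraries labelled Ythdf2-vKO than in both control libraries, by 0.25 to 0.43 on the log2 scale, and none passed the adjusted threshold of 0.05. Over all genes tested, 0.114% were called lower and 0.279% higher, 45.3% had groups without overlap and 22.6% had them without overlap on the lower side, and 49.7% had a log2 fold change below 0. Lower groups without overlap were more common among other genes of at least 80 CPM, at 1306 of 3156. Of the 49 of these with a transcript under 700 nt, it was 25. At an unadjusted p under 0.05, 4 of the 5 members were lower, all but Tnp2, against 6.47% of all genes tested (14.1% in either direction). In either direction, 538 of those 3156 genes and 10 of those 49 had such a p in edgeR's test. The median log2 fold change was -0.31 over the members and 0.00 (0.00265) over all genes tested. The summed level of the members was 5162 and 4271 CPM in control against 3817 and 3884 CPM in the libraries labelled Ythdf2-vKO, a log2 difference of group means of -0.29. In bulk testis RNA, fewer late spermatids and less of these messages per spermatid cannot be told apart.

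Tnp1, the small basic transition protein, stood at 580.0 and 467 CPM in control and at 404 and 396 CPM in the libraries labelled Ythdf2-vKO. Control replicate 1 was the highest, and the libraries labelled Ythdf2-vKO lay close together below control replicate 2. The means were 523 ± 80.2 and 399.8 ± 5.23 CPM (SD, n = 2 each), with a log2 fold change of -0.39 (SE 0.13) and an adjusted p of 0.209.

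Tnp2, the zinc-binding transition protein, stood at 1461 and 1179 CPM in control and at 1128 and 1089 CPM in the libraries labelled Ythdf2-vKO. Control replicate 2 lay nearer to the libraries labelled Ythdf2-vKO than to the other control. The means were 1319.8 ± 199 and 1108 ± 27.9 CPM (SD, n = 2 each). The log2 fold change of -0.25 (SE 0.13) was the smallest of the 5, with an adjusted p of 0.407.

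Prm1, the protamine found in sperm of all mammals, stood at 663 and 560.1 CPM in control and at 487 and 503 CPM in the libraries labelled Ythdf2-vKO. The groups did not overlap, and control replicate 1 was again the highest. The means were 612 ± 73.0 and 495 ± 11.1 CPM (SD, n = 2 each), with a log2 fold change of -0.31 (SE 0.12) and an adjusted p of 0.287.

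Prm2, the most counted member, stood at 2351 and 1970.0 CPM in control and at 1729 and 1817 CPM in the libraries labelled Ythdf2-vKO. Its pattern over the libraries was that of Prm1. The means were 2161 ± 269.7 and 1773 ± 61.9 CPM (SD, n = 2 each), with a log2 fold change of -0.29 (SE 0.12) and an adjusted p of 0.318.

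Prm3, the acidic member, stood at 107 and 95.7 CPM in control and at 69.8 and 80.3 CPM in the libraries labelled Ythdf2-vKO. It had the fewest counts of the 5, from 1868 to 2870 per library, for which counting error alone is at most 2.31% of a value. The means were 101 ± 7.75 and 75.1 ± 7.45 CPM (SD, n = 2 each). The log2 fold change of -0.43 (SE 0.13) was the largest of the 5 in size, with an adjusted p of 0.175.

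**Figure D2:**
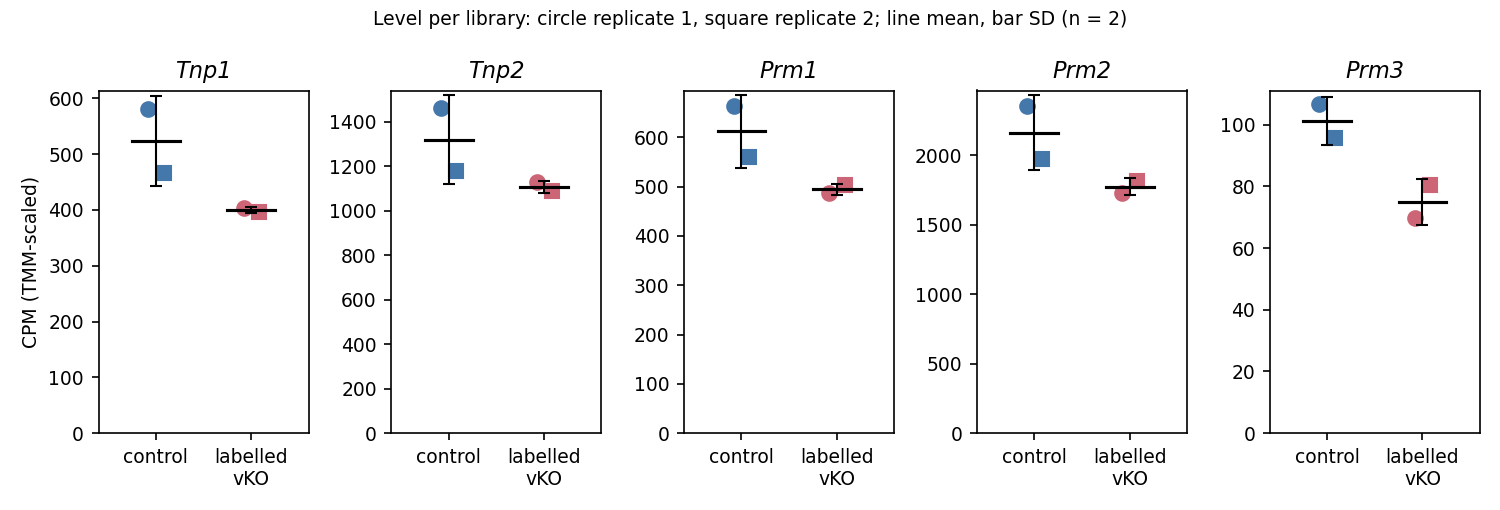
TMM-scaled CPM (vertical axes, each from 0) of each gene in the control libraries and the libraries labelled Ythdf2-vKO, with circles for replicate 1, squares for replicate 2, lines for means and bars for SD (n = 2). For each gene both control points lie above both points of the other group, and control replicate 1 is the highest.

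Control replicate 1 set much of the size. Averaged over the 5 members, the deviation from a gene's own mean log2 CPM was 0.29 in control replicate 1, 0.04 in control replicate 2, -0.19 in replicate 1 and -0.14 in replicate 2 of the libraries labelled Ythdf2-vKO. Without control replicate 1, the log2 fold change was -0.10 for Tnp2, -0.16 for Prm2, -0.19 for Prm1, -0.23 for Tnp1 and -0.36 for Prm3, and that of the summed level was -0.15. Without control replicate 2 it was -0.40, -0.41, -0.42, -0.54 and -0.51 in the same order, and all 5 passed, with adjusted p values from 0.000171 to 0.00713 in edgeR's test. Of all genes tested in that fit, 2.39% were called lower. With 1 control library, that fit takes its estimate of the spread from the other group alone.

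The size also depended on whether trends with GC content or length of transcripts were removed. An offset that removes each library's trend with GC content gave log2 fold changes of -0.37 for Tnp1, -0.42 for Tnp2, -0.39 for Prm1, -0.42 for Prm2 and -0.61 for Prm3. With it Prm3 passed the threshold, at an adjusted p of 0.0323, and the others did not, with adjusted p values of 0.199, 0.107, 0.145 and 0.115 in turn. In that fit 0.317% of all genes tested were called lower. With the replicate number as a block Prm3 passed as well (log2 fold change -0.43, adjusted p 0.0212 in edgeR's test), where 1.85% of genes were called lower, and with the block and the GC offset (-0.62, adjusted p 0.00134), where 1.75% were. An offset for transcript length gave -0.28, -0.15, -0.20, -0.20 and -0.32 in the same order of genes. Among genes other than the members with at least 10 CPM and a transcript under 700 nt, 233 of 324 had a log2 fold change below 0, with a median of -0.09. Among the 49 of these with at least 80 CPM it was 39, with a median of -0.11. Among 3156 other genes of at least 80 CPM and any length, 2169 were below 0, with a median of -0.09. Each member lay further below 0 than these medians in the fit to all libraries, a comparison given with no test. Without control replicate 1 the order turned for Tnp2, at -0.10 against a median of -0.15 over the 324 short genes.

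**Figure D3:**
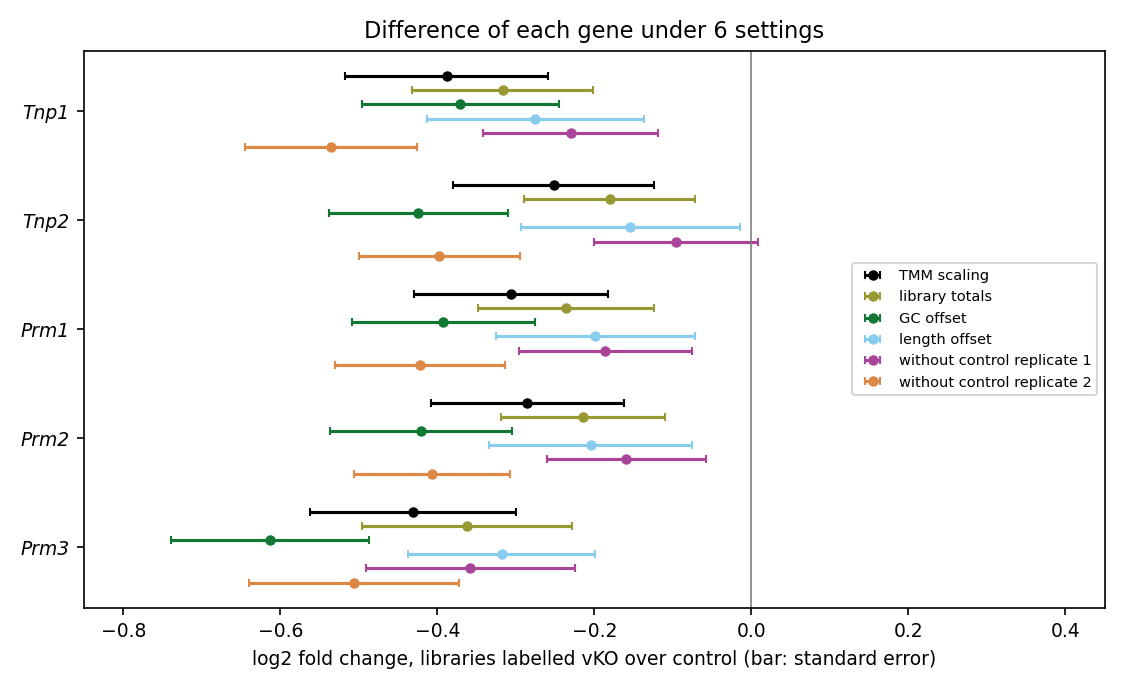
Log2 fold change of each gene (horizontal axis, libraries labelled Ythdf2-vKO over control) with its standard error as a bar, under TMM scaling and 5 alternatives shown by colour. Each point lies below 0, from -0.10 for Tnp2 without control replicate 1 to -0.61 for Prm3 with the GC offset.

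Other genes of elongating spermatids mostly lay below 0 as well. Of 10 such marker genes, 8 had a log2 fold change below 0, with a median of -0.22, 0 called and 3 at an unadjusted p under 0.05. Their summed level was 10072 and 8369.8 CPM in control against 8018 and 8228 CPM in the libraries labelled Ythdf2-vKO, and control replicate 1 was the highest here as well. Without control replicate 1 the median was -0.03. Akap4, a scaffold of the fibrous sheath of the sperm tail, stood at 1979.5 and 1676 CPM in control and at 1487 and 1446 CPM in the other group, a log2 difference of -0.32 (SE 0.12, adjusted p 0.262). Oaz3 had a log2 fold change of -0.20 without overlap. Gapdhs, 1 of the 2 markers above 0, had one of 0.04 with overlapping groups. A wider list of 31 late spermatid genes holds all of the 10 markers but Tssk6, so it is not independent of them. It also shares Acrv1, Spaca1 and Izumo1 with the round spermatid genes described below. In this wider list 22 were below 0, with a median of -0.16, and 0 were called. Without control replicate 1 that median was -0.06. The share below 0 was 71.0% in this list and 68.7% among the other genes of at least 80 CPM. Odf2, of the outer dense fibres, had a log2 fold change of -0.18 with overlapping groups. Ldhc, the sperm lactate dehydrogenase, had one of -0.19 without overlap.

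**Figure D4:**
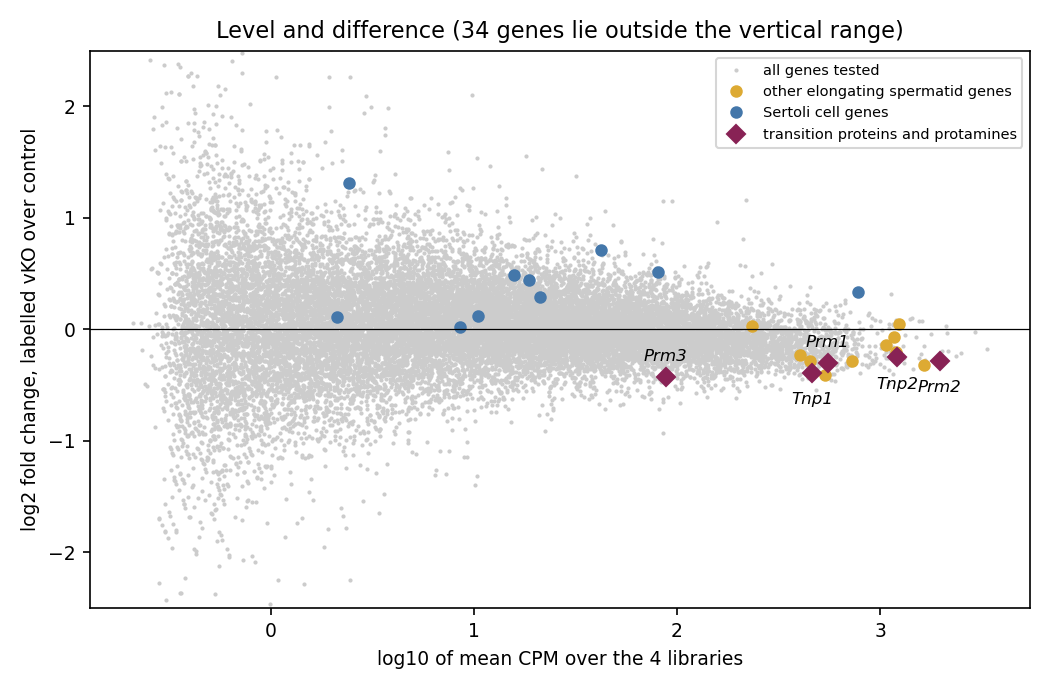
Log2 fold change (vertical axis) against log10 of the mean CPM (horizontal axis) for all genes tested in grey, the members as purple diamonds, 10 other elongating spermatid genes in yellow and 10 Sertoli cell genes in blue. The members lie below 0, beside other spermatid genes, and the Sertoli cell genes lie above 0; 34 genes fall outside the vertical range.

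Markers of somatic cells and spermatogonia mostly lay above 0. All 10 Sertoli cell genes had a log2 fold change above 0, with a median of 0.39 and a summed level of 825 and 886 CPM in control against 1177 and 1030.0 CPM. Of these only Wt1, a transcription factor of Sertoli cells, was called (log2 fold change 0.71, adjusted p 0.0418). Leydig cell genes were above 0 in 7 of 8 (median 0.38) and spermatogonial genes in 9 of 10 (median 0.25, and 0.15 with the GC offset), with 0 called in each list. The summed level of the Leydig cell genes was 301 and 365 CPM in control against 478 and 357 CPM, with overlapping groups. Their median was 0.27 without replicate 1 of the libraries labelled Ythdf2-vKO. The median was 0.40 over 6 endothelial genes, of which 4 were above 0 and 2 below, with 0 called. Those below were Egfl7, at -0.43 with groups that did not overlap, and Pecam1, at -0.20. Apart from Vwf, at 23.7 CPM over the 4 libraries, their mean levels were low, from 0.663 to 3.85 CPM. Over 4 erythrocyte genes the median was 0.76, and 0.41 without replicate 1 of the libraries labelled Ythdf2-vKO. Over 6 macrophage genes it was 0.08, and ran from -0.05 without replicate 1 of the libraries labelled Ythdf2-vKO to 0.56 without control replicate 2. Of 5 names listed for epididymis, 2 were among the counted genes and only Cst8 was tested. It stood at 205 and 201 CPM in control against 164 and 167 CPM, a log2 fold change of -0.29. Whether the Cst8 counts came from epididymis was not tested. Spermatocyte genes were below 0 in 9 of 10 (median -0.14, 0 called), a median that was -0.03 without control replicate 2, -0.24 without control replicate 1 and -0.05 with the GC offset. Round spermatid genes, which mark the cells that first transcribe the members, were below 0 in 5 of 8, with a median of -0.01 and a summed level of 1726 and 1719 CPM in control against 1630.2 and 1736 CPM. That median was 0.06 under scaling by library totals and 0.01 with the GC offset. The part of cell composition in the members' values was not tested.

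The machinery around the members was described through 7 lists that hold 130 tested genes. Of these, 75 were below 0, with a median of -0.07, and 1 was called, against 0.393% of all genes tested. That gene was Padi2, a peptidylarginine deiminase, at 3.69 ± 0.440 CPM in control against 11.2 ± 0.149 CPM in the libraries labelled Ythdf2-vKO (SD, n = 2 each), which is 1.59 higher on the log2 scale (SE 0.21, adjusted p 0.00731 in edgeR's test). Whether the Padi2 counts came from spermatids or from other cells of the testis was not tested. Srpk1, which phosphorylates protamine 1, had a log2 fold change of -0.17, Srpk2 one of -0.16 and the phosphatase Ppp1cc one of -0.13. These 3 genes and Padi2 belong to a list of 10 for modification of protamines and transition proteins. In it 5 genes were above 0 and 5 below (median -0.04, 1 called, 3 at an unadjusted p under 0.05). Scaling by library totals moved that median to 0.02, and the GC offset moved it to 0.01.

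Transcription regulators of haploid spermatids showed no common direction. Of 14 genes, 8 were below 0, with a median of -0.04 that was 0.02 under library totals and without control replicate 1. Gtf2a1l, a germ cell form of a general transcription factor subunit, had a log2 fold change of -0.17, and Rfx2, a regulator of spermatid genes, one of 0.18 with overlapping groups. Kif17, a kinesin that governs the location of a CREM coactivator, had one of 0.07.

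Histone genes of spermatids lay on both sides of 0. H1fnt, a spermatid linker histone, stood at 701 and 592 CPM in control and at 548 and 545 CPM in the libraries labelled Ythdf2-vKO (log2 fold change -0.24, SE 0.12, adjusted p 0.408). Hils1, another, stood at 488 and 469.7 CPM against 407 and 403 CPM (log2 fold change -0.24, SE 0.11, adjusted p 0.368). Hist1h1t, the testis linker histone first made in spermatocytes, lay on the other side of 0, at 2.15 ± 0.498 CPM in control against 3.03 ± 0.588 CPM (SD, n = 2 each), without overlap (log2 fold change 0.49, SE 0.31, adjusted p 0.526), and was named after its values were seen. H3f3b, which encodes a replacement histone H3 used in all cells, had a log2 fold change of 0.10 with overlapping groups. Over the list of 10 tested histone genes, 6 were below 0 and 0 were called.

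Among 29 genes of histone removal and chromatin remodelling, 16 were below 0 (median -0.08, 0 called, 7 at an unadjusted p under 0.05). That median ran from -0.15 without control replicate 2 to -0.01 under scaling by library totals. Phf7, a reader and ubiquitin ligase acting on histones in spermatids, had a log2 fold change of -0.19, the chaperone Hspa4l one of -0.13, and Hspa2, a chaperone of transition proteins, one of 0.32 with overlapping groups. None of these passed.

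The storage and activation of spermatid messages was covered by 31 genes, of which 19 were below 0 (median -0.06, 0 called, 5 at an unadjusted p under 0.05). That median was 0.01 under library totals and 0.00 (0.00304) with the GC offset. It was -0.13 when control replicate 2 was left out. Ybx2 and Ybx3, the Y-box proteins that hold protamine messages untranslated, stood at 1853 and 1273 CPM and at 1624 and 1141 CPM in control. In the libraries labelled Ythdf2-vKO they stood at 1745 and 1539 CPM and at 1554 and 1413 CPM. Both lay inside the control range, with log2 fold changes of 0.07 and 0.10. Pabpc1, a poly(A)-binding protein, had a log2 fold change of 0.03.

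Genes beside the members on the chromosomes were also read. Of the genes that overlap a member, 1700027A15Rik across Tnp1 had a log2 fold change of -0.48, its groups not overlapping. Its SE was 0.13 and its adjusted p 0.14 in edgeR's test. Gm10343, within the span of Prm1, had one of -0.03, its groups overlapping. Neither was in the chosen list of neighbours. All 6 tested genes of that list, beside Tnp1 and the chromosome 16 cluster, had a log2 fold change above 0, with a median of 0.23, and 0 were called. That median was 0.05 with the GC offset, 0.09 without control replicate 2 and 0.15 without replicate 1 of the libraries labelled Ythdf2-vKO. The most abundant, Clec16a, stood at 73.9 and 60.4 CPM in control and at 70.1 and 64.2 CPM in the libraries labelled Ythdf2-vKO, with a log2 fold change of 0.00 (0.00115), its groups overlapping.

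The genes whose pattern over the 4 libraries was nearest to that of the members were found by the distance between log2 CPM deviations, among 10347 genes of at least 10 CPM. They were Gpat4 (distance 0.0192), Cntnap2 (0.0223), Mroh8 (0.0231), Prss21 (0.0334) and Eps8l3 (0.0363). The members themselves lay at distances of 0.0276 to 0.167 from their own mean. With 4 libraries such likeness is a description only.

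In the authors' deposited table the log2 fold changes were -0.39 for Tnp1, -0.25 for Tnp2, -0.31 for Prm1, -0.29 for Prm2 and -0.43 for Prm3. The adjusted p values in the authors' deposited table ran from 0.159 for Prm3 to 0.519 for Tnp2.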

How the data were processed

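The authors deposited raw read counts per gene for the 4 libraries, per the file headers, beside their mean normalized count (a signal of counts divided by size factors), their log2 fold change with its standard error, a test statistic (a score, not used here) and its p-value and adjusted p-value. HISAT2 2.1.0 and HTSeq 0.6.1p1 are named in the submitters' processing notes without settings, and the genome build is not given in the sources used here. Symbols turned into dates (26) were restored by identifier. Annotation came from GENCODE M21 (GRCm38), whose build may differ from the authors'.

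Counts were tested with edgeR 4.0.16 (limma 3.58.1, R 4.3.3): filterByExpr, TMM, a robust quasi-likelihood fit of group, two-sided, adjusted over 21132 genes, called at an adjusted p under 0.05. The script was checked on simulated data. DESeq2 1.42.0 and other scalings, filters, offsets and left-out libraries were alternatives. Replicates differed by more than sampling noise (chi-square per degree of freedom 17.8 in control and 7.31 in the libraries labelled Ythdf2-vKO). Apart from the members, genes were named if called in a list, or if among the 3 most abundant of it, or among the 5 nearest in pattern. The histone list held 20 names, older and newer symbols together, of which 10 were in the table. Members and lists were chosen with earlier results of these data known.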

Additional observations from a re-analysis of the deposited data

How the results depend on the processing

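Over the 12 alternatives that kept all libraries, each member stayed below 0. The log2 fold changes ran from -0.39 to -0.27 for Tnp1, -0.42 to -0.14 for Tnp2, -0.39 to -0.19 for Prm1, -0.42 to -0.20 for Prm2 and -0.62 to -0.31 for Prm3. Adjusted p values over these ran from 0.059 to 0.377, 0.0587 to 0.666, 0.0585 to 0.505, 0.0814 to 0.499 and 0.00134 to 0.232 in turn. Leaving out 1 library at a time gave -0.54 to -0.23 for Tnp1, -0.40 to -0.10 for Tnp2, -0.42 to -0.19 for Prm1, -0.41 to -0.16 for Prm2, -0.54 to -0.33 for Prm3 and -0.42 to -0.15 for the summed level. Among the fits run, all 5 passed only without control replicate 2, and without either library labelled Ythdf2-vKO or without control replicate 1 none did.

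Both groups carry replicate numbers 1 and 2, but the labels do not say what these mark. Same-numbered libraries were therefore not taken as pairs in the main fit. Across 17829 genes of at least 1 CPM, the difference between replicates 1 and 2 correlated at 0.107 between the groups. With 1 such difference per group, this value cannot decide whether the libraries were paired. Prm3 passed with the replicate block (-0.43), with the GC offset (-0.61) and with both (-0.62), and the other 4 members did not pass in these fits. The number of genes called was 59 higher and 24 lower without the block and 627 and 390 with it. With the GC offset it was 91 and 67 without the block and 350 and 370 with it, and with the length offset 68 and 27 without and 300 and 214 with it.

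Without the block, library totals alone gave 181 and 37 and a DESeq2 Wald test 137 and 80. A fit without robust estimation gave 15 lower. Leaving out 1 library at a time gave 30 to 1048 higher and 5 to 523 lower. The cause of these changes was not tested. The median over all genes moved to 0.07 with library totals.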
